A study of Mus musculus with 6 samples.

Results

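Amino acid and peptide transporter genes were followed in the jejunal crypt epithelium of mice deficient for Sox9, a transcription factor of the crypt base. The genes were chosen by symbol alone, as the Slc1a, Slc3a, Slc6a, Slc7a, Slc15a, Slc16a, Slc36a, Slc38a and Slc43a families, with the brightest probe set standing for each gene. This gave 81 genes of the 18193 that had a probe set of 1 symbol. Of these, 78 encode carriers or their subunits, and 3 (Slc7a6os, Slc6a19os and Slc36a1os) are genes on the opposite strand of a carrier that the symbol rule also takes in. The study compared 3 Sox9-deficient mice (KO 1 to KO 3) with 3 wild type littermate controls (WT 1 to WT 3), all C57BL/6 and 3 months old, with 1 single-colour array of crypt RNA for each mouse. The labels used here name neither the mutant allele nor what drives the deletion. Values are log2 GCRMA intensities, in which 1 unit is a 2-fold difference.

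Absorptive epithelium takes up the products of protein digestion through carriers in both membranes. Apical carriers of the brush border bring in dipeptides, tripeptides and free amino acids on sodium, proton or exchange gradients, and basolateral exchangers and facilitators pass amino acids on to the blood. Several of the exchangers work only as pairs of a light chain (Slc7a) and a heavy chain (Slc3a). Dividing cells use another set, among them carriers of glutamine, leucine and arginine, and the lysosome has carriers that return amino acids to the cytosol and inform mTORC1. The families also hold carriers of lactate, creatine, taurine and neurotransmitters.

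Some arrays stood apart in ways that touch these genes. KO 1 most often lay at least 1 log2 unit away from the nearest other array. It was so lowest in 460 and highest in 155 of the 18108 probe sets tested. The other arrays were so lowest in 9 to 190 and highest in 22 to 61. The pancreatic acinar genes Ctrb1 and Cpa1 read 10.77 and 10.14 on KO 2 and at most 2.34 on the other 5 arrays. Xist was high on KO 1 to KO 3 and WT 3 (12.29 to 13.35) and low on WT 1 and WT 2 (1.92 and 3.72), where the Y-linked Eif2s3y read 10.10 and 10.12, so sex went partly with genotype. The Gapdh 3' minus 5' signal, a mark of RNA quality, was 1.75 on WT 3 and 0.37 to 0.91 elsewhere. One of 3 Sox9 probe sets was lower in every mutant (2.42 to 2.75 in KO, against 5.84 to 7.61 in WT), without passing in limma (adjusted p = 0.188), and the other 2 differed by 1.05 and -0.10, so the array checks the label only through 1 probe set. The epithelial marker Epcam lay between 14.41 and 15.09 on all arrays, all 8 fibroblast and muscle markers lay under a mean of 4, and so did all 6 enteric neuron and glia markers found. Leukocyte markers were present, and the lowest array depended on the measure. By mean deviation from the 6-array mean of each gene it was WT 1 (-1.62). By summed linear level, in which bright genes weigh most, it was KO 3. That sum ran from 64.4% (KO 3) to 139% of its average in KO and from 87.0% (WT 1) to 127% in WT. Lyz2 was the brightest of these markers on WT 1 (14.02), with Gzma next (9.4), so the sum on WT 1 was mostly Lyz2. Cd68 and Itgam of the same list lay under a mean of 4 (3.29 and 2.52). Whether the Lyz2 signal came from leukocytes was not tested. Bulk RNA cannot tell fewer cells of a type from less RNA per cell.

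Of the 81 genes, 42 reached a mean of 4 over the 6 arrays and were called expressed in these crypts, 41 of them transporters and the remaining one Slc7a6os. They were 9 of 13 Slc16a, 9 of 16 Slc7a, 7 of 21 Slc6a, 6 of 9 Slc38a, 4 of 7 Slc1a, 3 of 5 Slc15a, 2 of 2 Slc3a, 1 of 5 Slc36a and 1 of 3 Slc43a genes. Just inside the limit lay Slc16a11, a monocarboxylate carrier, at a mean of 4.02, and just outside lay Slc7a2, a cationic amino acid carrier, at a mean of 3.43. Of the 39 genes under the limit, 37 stayed under 4 on every array and 32 varied by less than 0.2 over the arrays. Those genes included the neutral and cationic amino acid carrier Slc6a14, the cystine exchanger Slc7a11 and the basolateral carrier Slc43a1. The amino acid carrier gene Slc36a4, named after its values were seen, read 2.42, 2.44 and 2.39 in KO, against 3.65, 2.67 and 3.32 in WT. Its KO arrays lay under all WT arrays, but it was below the limit and was not tested. Brightness also depends on each probe set's sequence, so the order of genes by signal was not read as an order of abundance.

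**Figure D1:**
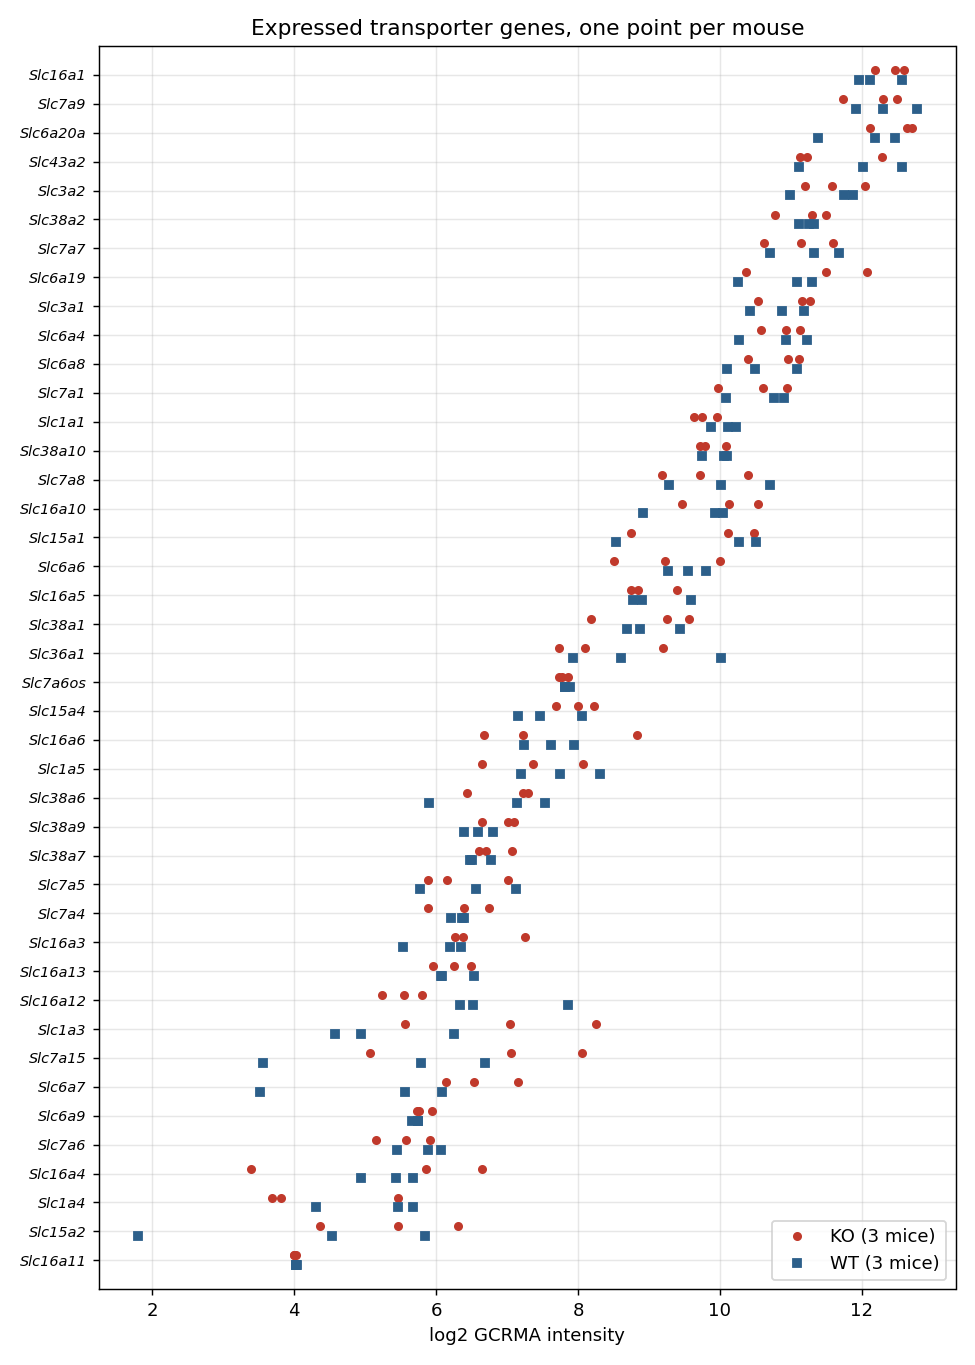
The 42 expressed genes are plotted by row with their log2 GCRMA intensity on the horizontal axis, KO mice as circles above WT mice as squares. In 40 of the 42 rows the KO and WT points overlap in range, and Slc16a12 and Slc6a7 are the 2 rows in which they do not.

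No expressed transporter gene passed the test between genotypes. In limma, with Benjamini-Hochberg adjustment over 18108 probe sets, 0 of 42 genes passed an adjusted p of 0.05, with 0.999 as the smallest value, against 2 probe sets (0.011%) in the whole table. At an unadjusted p under 0.05 there was 1 gene, Slc16a12, against 3.62% of all probe sets. The groups did not overlap in 2 of 42 genes, 1 higher and 1 lower in KO, against 9.12% of all probe sets (5.09% higher and 4.03% lower). The median difference KO minus WT was 0.00 over the 42 genes and 0.03 over all probe sets tested. In 34 of 42 genes (81.0%) the difference was at most 0.5 in size, against 86.9% of all probe sets.

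These misses do not show that the genes were equal. The 95% interval of the difference stayed within 1 log2 unit on both sides of 0 in 20 of the 42 genes, and in the other 22 it reached a 2-fold difference or more in at least one direction. The labels do not say whether mutants and controls were paired by litter, and 3 mice a group limited the precision.

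**Figure D2:**
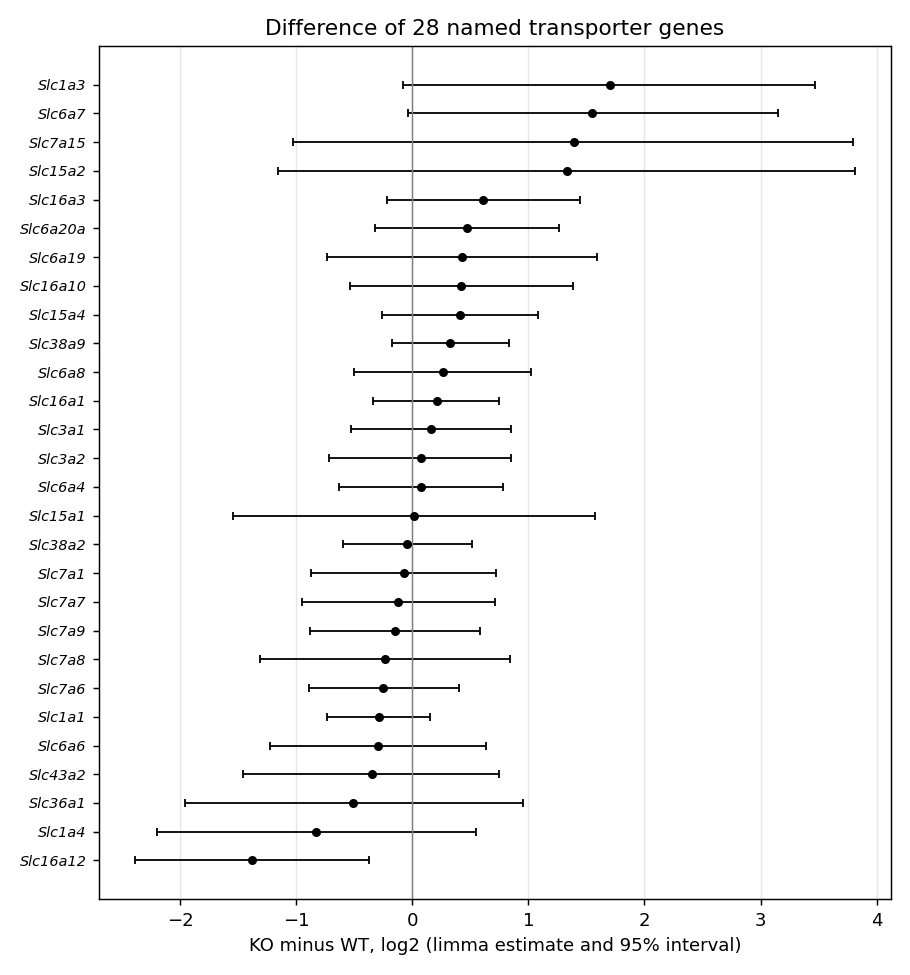
The KO minus WT difference of 28 named genes is shown on the log2 scale with its 95% interval from limma, ordered from the most positive (Slc1a3, 1.70) to the most negative (Slc16a12, -1.38). The interval leaves out 0 for Slc16a12 only, whose adjusted p was 0.999.

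Apical carriers were the first group, with 8 of 11 listed genes expressed, 4 higher and 4 lower in KO, and 0 past the test. Slc15a1, the proton-coupled carrier of dipeptides and tripeptides, read 10.48, 8.75 and 10.12 on KO 1 to KO 3, against 8.53, 10.51 and 10.27 on WT 1 to WT 3. Each genotype thus had 1 low mouse and 2 high ones, and the means were 9.78 ± 0.91 in KO and 9.77 ± 1.08 in WT. The difference of 0.01 had a 95% interval of -1.55 to 1.57. Slc6a19, the main sodium-driven carrier of neutral amino acids in the brush border, read 12.07, 10.36 and 11.50 in KO, against 10.26, 11.29 and 11.09 in WT (difference 0.43, interval -0.74 to 1.59). KO 1 was the highest array for this gene and WT 1 the lowest. The difference was 0.05 without KO 1, 0.12 without WT 1 and 0.90 without KO 2, and the other tested probe set differed by 0.36.

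The cystine and dibasic amino acid exchanger is made of a light chain, Slc7a9, and a heavy chain, Slc3a1. Slc7a9 read 12.29, 11.74 and 12.50 in KO, against 11.91, 12.77 and 12.30 in WT (difference -0.15). Slc3a1 read 11.16, 10.54 and 11.27 in KO, against 10.43, 11.18 and 10.88 in WT (difference 0.16). Both chains had their lowest KO value on KO 2 and their lowest WT value on WT 1. The proline carrier gene Slc6a20a read 12.11, 12.71 and 12.63 in KO, against 11.38, 12.19 and 12.47 in WT. Its difference of 0.47 shrank to 0.15 without WT 1 and to 0.01 once Y-linked signal entered as a covariate. Only WT 1 and WT 2 carried Y-linked signal. With that covariate the difference, here and below, therefore sets the KO mice against WT 3 alone.

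The remaining apical genes had lower means in KO but did not pass. The glutamate and aspartate carrier gene Slc1a1 read 9.75, 9.64 and 9.96 in KO, against 10.11, 9.88 and 10.23 in WT. Its difference of -0.29 had a narrow interval for this set, -0.74 to 0.15, although its 2 other tested probe sets differed by -0.06 and 0.46. The taurine carrier gene Slc6a6 averaged 9.24 ± 0.75 in KO and 9.54 ± 0.26 in WT, and the proton-coupled carrier gene Slc36a1, which also serves the lysosome, averaged 8.34 ± 0.76 in KO and 8.85 ± 1.06 in WT (SD over 3 mice of each genotype). The sign of the Slc36a1 difference (-0.51) rested on WT 2, which read 10.01, and it was 0.08 without that array.

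Basolateral carriers were expressed in 6 of 9 listed genes, 2 higher and 4 lower in KO, with 0 past the test. The heavy chain gene Slc3a2 read 11.58, 11.20 and 12.04 in KO, against 10.98, 11.75 and 11.88 in WT (difference 0.07). Its partner Slc7a7, which exports cationic amino acids, read 11.14, 10.62 and 11.59 in KO, against 10.71, 11.68 and 11.32 in WT (difference -0.12). Both genes had the same order among the mutants, with KO 3 highest and KO 2 lowest, and WT 1 was the lowest control in both. The partner Slc7a8, for neutral amino acids, averaged 9.77 ± 0.61 in KO and 10.01 ± 0.71 in WT, and the partner Slc7a6 averaged 5.55 ± 0.38 in KO and 5.80 ± 0.32 in WT (SD over 3 mice of each genotype). The Slc7a8 difference of -0.24 was -0.94 once Y-linked signal entered as a covariate and 0.11 without WT 3.

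Slc16a10, the facilitator of aromatic amino acids, read 10.13, 9.47 and 10.54 in KO, against 8.91, 9.93 and 10.04 in WT. Its difference of 0.42 was smaller than the SD of either group (0.54 in KO and 0.62 in WT) and was 0.06 without WT 1. Slc43a2, a facilitator of large neutral amino acids, read 11.23, 11.13 and 12.28 in KO, against 11.12, 12.56 and 12.02 in WT (difference -0.35, interval -1.46 to 0.75). The difference was -0.03 without WT 2 and -0.74 without WT 1. Here too the lowest KO array was KO 2 and the lowest WT array WT 1.

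This order of arrays was shared by many of the absorptive carriers. It ranks arrays inside each genotype, so by its definition it says nothing of a difference between genotypes. KO 2 was the lowest KO array and WT 1 the lowest WT array in 8 of the 14 expressed apical and basolateral genes (57.1%), namely Slc6a19, Slc7a9, Slc3a1, Slc15a1, Slc3a2, Slc7a7, Slc16a10 and Slc43a2. The same held in 13 of all 42 expressed genes (31.0%) and in 9.38% of all probe sets tested. The pattern was noticed in these arrays and is given as a description. It is that of the brightest probe set, and in some genes the next brightest differed. That of Slc16a10 was lower on KO 1 (9.02) than on KO 2 (9.55). Those of Slc7a7 and Slc43a2 had WT 3 as the lowest control (7.72 and 7.93, against 8.31 and 7.97 on WT 1). The second probe set of Slc6a19 kept the order. Over the 14 genes, the mean deviation from the average of each gene was -0.11, -0.38 and 0.42 for the mutants 1 to 3, against -0.53, 0.34 and 0.26 for the controls 1 to 3. In all 14 genes the genotype difference was smaller than the range among the 3 mutants. A difference of means is often smaller than the range of 3 values. No share over all probe sets is given, so this does not set these genes apart.

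Peptidases, which split peptides at the brush border or, for Lap3 and Pepd, in the cytosol, followed the same order in 7 of 9 expressed genes (77.8%), and in 5 of 7 (71.4%) without those cytosolic enzymes. Their mean deviations were 0.20, -0.82 and 0.63 in the mutants, against -0.44, 0.33 and 0.10 in the controls. Among them 0 of 9 passed, with differences between -0.39 (Enpep, an aminopeptidase) and 0.39 (Dpep1, a dipeptidase), and Xpnpep2 differed by -0.32. Other villus enterocyte markers matched this order in 3 of 11 genes, and their mean deviations were 0.22, 0.32 and 0.12 in the mutants, against -0.59, 0.03 and -0.09 in the controls. By mean deviation WT 1 was thus the lowest control for all 3 lists. By the same measure KO 2 was the lowest mutant for carriers and peptidases and the highest array for the villus markers. The villus means leaned on Ada, the marker of widest range (4.36), named after its values were seen. It read 11.25, 10.28 and 6.88 in KO, against 7.74, 7.19 and 7.19 in WT. The summed linear level of the villus markers ran from 98.0% to 117% of its average in KO and from 79.7% to 110% in WT. By that sum KO 3 was the highest array (117%), and KO 2 stood at 100%. Treh, Apoa4 and Alpi, the markers of smallest p, differed by 0.77, 0.82 and 0.95 and did not pass. The part of villus tissue and of pancreatic RNA in the order of arrays was not tested.

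**Figure D3:**
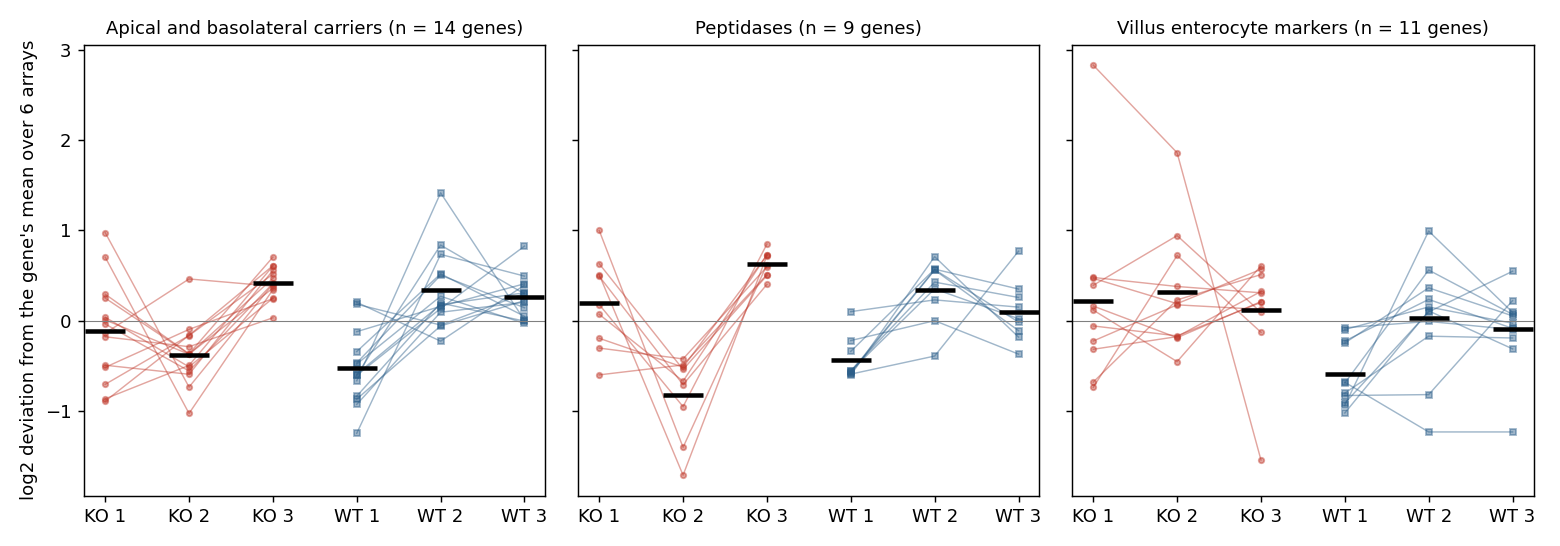
Each gene's log2 deviation from its own mean over the 6 arrays is plotted by array for 14 apical and basolateral carriers, 9 peptidases and 11 villus enterocyte markers, with thin lines joining the values of 1 gene within a genotype and black bars giving the mean over genes. Carriers and peptidases are low on KO 2 (means -0.38 and -0.82) and WT 1 (-0.53 and -0.44) and high on KO 3 (0.42 and 0.63), while villus markers are low on WT 1 (-0.59) only.

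Carriers linked to growth were expressed in 8 of 11 listed genes, 3 higher and 5 lower in KO, with 0 past the test and a median difference of -0.06. The arginine and lysine carrier gene Slc7a1 read 9.97, 10.94 and 10.61 in KO, against 10.76, 10.09 and 10.90 in WT (difference -0.07). The sodium-coupled glutamine carrier gene Slc38a2 read 10.78, 11.29 and 11.50 in KO, against 11.26, 11.12 and 11.33 in WT (difference -0.05, interval -0.60 to 0.51). Both had KO 1 as the lowest mutant and WT 2 as the lowest control. Slc7a5, Slc38a1 and the basolateral gene Slc7a6 shared this order, while Slc3a2, Slc1a5, Slc1a4 and Slc6a9 did not. Its share over all probe sets is not given here, and KO 1 was the array most often lowest by at least 1 log2 unit. Slc1a4, a carrier of alanine, serine and cysteine, read 3.69, 3.81 and 5.46 in KO, against 4.31, 5.46 and 5.67 in WT. Its difference of -0.83 (interval -2.20 to 0.55) came with values close to the floor on KO 1 and KO 2, and it was -0.51 without KO 1, -1.40 without KO 3 and -1.35 when Y-linked signal was fitted too. The other expressed genes of this group were Slc3a2 (above), Slc7a5, Slc1a5, Slc38a1 and Slc6a9, whose differences ran from -0.38 (Slc1a5) to 0.09 (Slc6a9).

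Lysosomal carriers were expressed in 4 of 6 listed genes, 3 higher and 1 lower in KO, with 0 past the test and a median difference of 0.26. Slc38a9, the arginine-responsive carrier that activates mTORC1, read 6.64, 7.01 and 7.10 in KO, against 6.59, 6.80 and 6.39 in WT (difference 0.32, interval -0.18 to 0.83). Its other tested probe set differed by -0.37. Slc15a4, a carrier of histidine and peptides, read 8.22, 7.69 and 8.0 in KO, against 8.05, 7.16 and 7.47 in WT (difference 0.41, or 0.21 without WT 2). The groups overlapped in both genes.

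Monocarboxylate carriers were expressed in 9 of 13 genes, 4 higher and 5 lower in KO, and held the gene of smallest p among all the transporters. Slc16a12, a creatine carrier, read 5.80, 5.55 and 5.24 on KO 1 to KO 3, against 7.86, 6.34 and 6.52 on WT 1 to WT 3. The highest mutant was still under the lowest control, and WT 1 stood 1.33 above the next array. KO mice averaged 5.53 ± 0.28 and WT mice 6.91 ± 0.83, and the difference was -1.38 with a 95% interval of -2.39 to -0.37. It did not pass over all probe sets (adjusted p = 0.999 in limma), and its limma adjusted p ran from 0.514 to 1 over the alternatives. The difference was -0.90 without WT 1, where it moved by over 1.5 times, and -0.99 once Y-linked signal entered as a covariate.

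Of the lactate carriers of the same family, Slc16a3 and Slc16a1 were expressed, and neither passed. Slc16a3, which exports lactate, read 7.25, 6.38 and 6.27 in KO, against 6.19, 6.35 and 5.53 in WT. KO 1 was its highest array, and the difference of 0.61 was 0.30 without it, 0.36 without WT 3 and 1.11 when Y-linked signal was fitted too. Slc16a1, the main carrier of lactate and short-chain fatty acids, read 12.47, 12.59 and 12.18 in KO, against 12.56, 11.96 and 12.12 in WT (difference 0.21, interval -0.34 to 0.75).

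Carriers best known from neurons and glia were mostly at the floor, with 3 of the 14 found on the array expressed, and those were Slc6a4, Slc6a7 and Slc1a3. The serotonin carrier gene Slc6a4, which enterocytes use as well, averaged 10.88 ± 0.28 in KO and 10.81 ± 0.48 in WT (SD over 3 mice of each genotype). Slc6a7, known as a proline carrier of the brain, read 6.14, 7.15 and 6.53 in KO, against 5.56, 3.52 and 6.08 in WT. All KO arrays lay above all WT arrays, although KO 1 and WT 3 were close, and the low value on WT 2 carried much of the difference of 1.55 (interval -0.04 to 3.15). It was 0.79 without WT 2 and 0.53 once Y-linked signal entered as a covariate.

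Slc1a3, a glutamate and aspartate carrier of glia, read 8.25, 7.04 and 5.56 in KO, against 4.94, 4.57 and 6.25 in WT. KO 3 lay below WT 3, so the groups overlapped despite a difference of 1.70 (interval -0.08 to 3.47). Its 2 other tested probe sets also had KO 1 as their highest array and differed by 0.71 and 0.56. The glial markers Gfap, S100b and Sox10 read at most 3.13 on any array, on KO 1 for Gfap. The Slc1a3 difference was 1.05 without KO 1 and 0.70 once Y-linked signal entered as a covariate.

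The peptide carrier gene Slc15a2 and the mouse aromatic amino acid carrier gene Slc7a15 had wide spreads in both genotypes. Slc15a2 read 4.36, 5.46 and 6.31 in KO, against 1.80, 4.53 and 5.84 in WT, and its difference of 1.33 was 0.20 without WT 1 and -0.46 once Y-linked signal entered as a covariate. Slc7a15 read 8.06, 5.07 and 7.06 in KO, against 3.56, 6.69 and 5.79 in WT, and its difference of 1.39 was 0.49 without WT 1. Both had WT 1 as their lowest array, as did 7 of the 14 absorptive carriers. The creatine carrier gene Slc6a8, which lies on the X chromosome, averaged 10.82 ± 0.38 in KO and 10.56 ± 0.49 in WT (SD over 3 mice of each genotype).

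**Figure D4:**
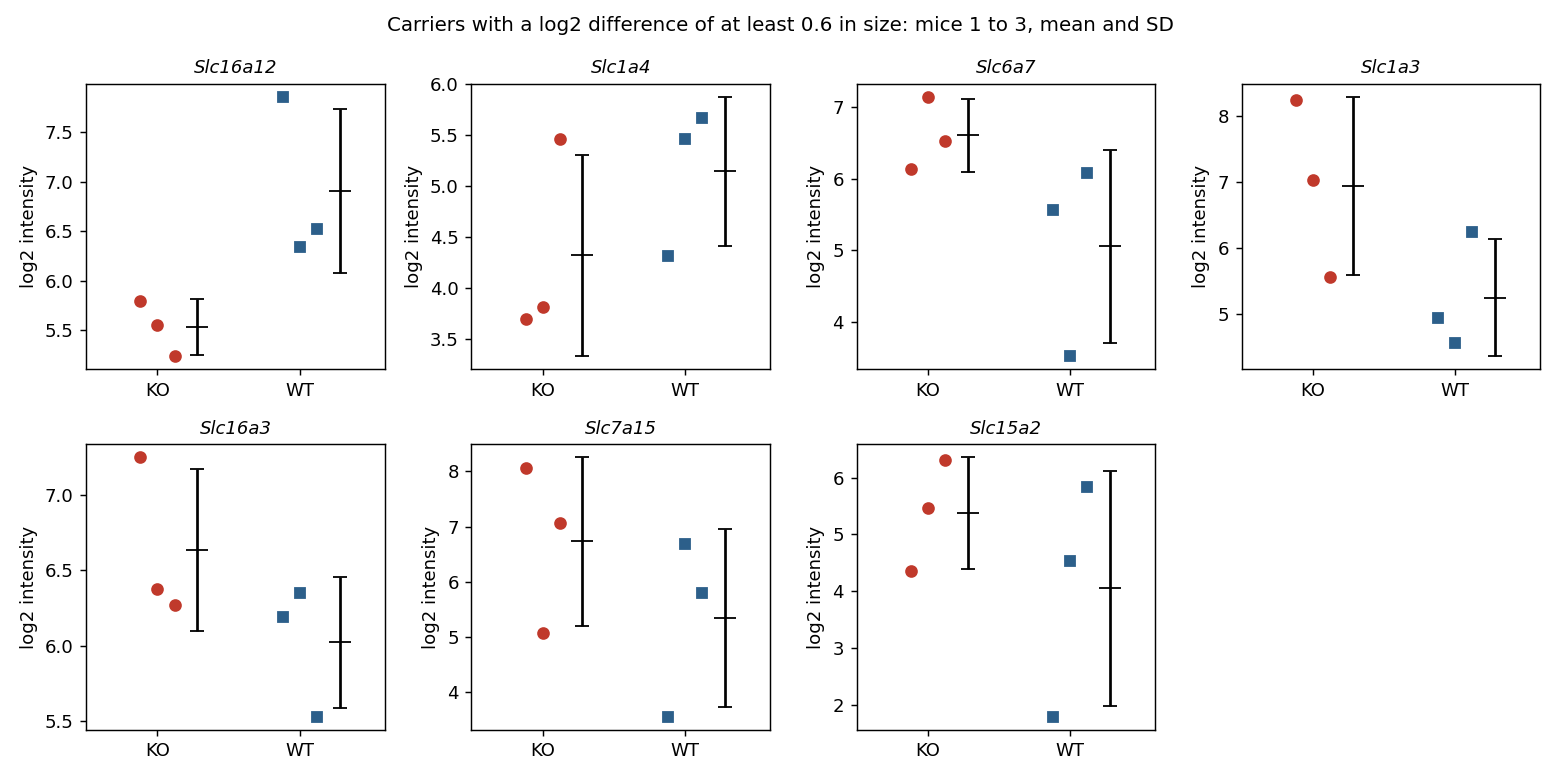
The 7 expressed genes with a KO minus WT difference of at least 0.6 in size are shown as log2 intensity by genotype, with KO on the left, 1 point per mouse (mice 1 to 3 from left to right), and the mean with its SD beside the points. The genotypes are apart in Slc16a12 and Slc6a7, and overlap in the other 5, and single mice carried much of the difference in several panels, such as WT 2 at 3.52 in Slc6a7 and WT 1 at 1.80 in Slc15a2.

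Some carrier genes under the limit stood out on a single array. Slc16a7, a lactate and pyruvate carrier gene also named after its values were seen, read 4.15 on WT 1 and at most 3.10 elsewhere. The probe set of Slc7a2 read 3.07, 6.11 and 2.83 on KO 1 to KO 3, against 2.86, 2.86 and 2.83 on WT 1 to WT 3, and was named after its values were seen, as the gene just under the limit. The array of KO 2 also held the pancreatic acinar genes: Cela1 read 7.79, 11.64 and 6.62 in KO, against 7.87, 7.20 and 6.70 in WT. The other 3 probe sets of Slc7a2 read at most 2.89 on any array. Of the 7 acinar genes listed, 3 were found under 1 symbol, and all 3 were highest on KO 2. Whether Slc7a2 signal on KO 2 came from pancreatic RNA was not tested.

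**Figure D5:**
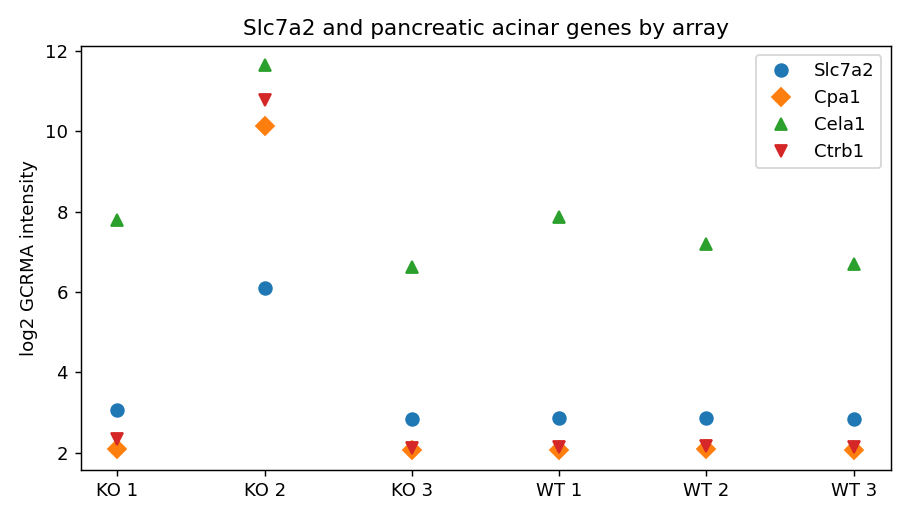
Log2 GCRMA intensity of Slc7a2 and of the pancreatic acinar genes Cpa1, Cela1 and Ctrb1 is plotted for each of the 6 arrays, KO on the left. All 4 genes are highest on KO 2, where Slc7a2 reads 6.11 and Ctrb1 10.77.

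Genes around the carriers did not pass either. Of the partner proteins and ion-gradient genes, 6 were expressed and 0 passed. They included Bsg, the chaperone of lactate carriers (0.34), Atp1b1, a sodium pump subunit (-0.36), and the scaffold gene Pdzk1 (0.49). Of 18 genes of the ATF4 amino acid response, 9 were higher, 9 lower and 0 past the test. Psat1, an enzyme of serine synthesis, read 6.45, 5.75 and 6.50 in KO, against 7.18, 7.30 and 6.87 in WT (difference -0.88), and Vldlr differed by -1.15. In both, all KO arrays lay below all WT arrays, as they did in Cebpb (-0.80), named after its values were seen. These 3 of 18 genes stand against 4.03% of all probe sets tested, and Nupr1 differed by -1.17 with overlap. Atf4 itself, named outside the rule, differed by 0.01.

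Of 19 expressed genes of mTORC1 amino acid sensing, 12 were higher, 7 lower and 0 passed, with a median of 0.06. Tsc2, an inhibitor of mTORC1, differed by 0.34, the Ragulator subunit gene Lamtor5 by -0.47 and the mTORC1 subunit gene Mlst8 by 0.22. All KO arrays lay above all WT arrays in Tsc2 and Mlst8, 2 of 19 genes, against 5.09% of all probe sets tested. Of 14 enzymes of glutamine and amino acid metabolism, 10 were higher, 4 lower and 0 passed. The alanine aminotransferase genes Gpt2 and Gpt differed by -1.10 and 0.48, and Gpt2 read 5.67, 4.07 and 5.73 in KO, against 6.31, 6.05 and 6.42 in WT. Aldh18a1, which makes the precursor of proline, differed by -0.31. All KO arrays lay below all WT arrays in Gpt2 and Aldh18a1, 2 of 14 genes, against 4.03% of all probe sets tested. They lay above all WT arrays in 1 of 14, Otc (0.28), named after its values were seen, against 5.09%.

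Markers of other cell types differed as follows, with 0 past the test in the proliferating, Paneth and leukocyte lists. All 6 expressed markers of proliferating cells were higher in KO (median 0.32, with Tyms 0.55, Mcm2 0.59 and Cdk1 0.37). WT 2 was the lowest array for each of them. Their mean deviations were -0.04, 0.36 and 0.17 on KO 1 to KO 3, against 0.09, -0.73 and 0.15 on WT 1 to WT 3. WT 1 and WT 3 thus lay within the range of the mutants. In KO 4 of 5 Paneth cell markers were lower (median -0.72, with Mmp7 -4.71, Lyz1 -0.75 and Itln1 -0.58). Of 10 expressed leukocyte markers, 9 were higher in KO (median 0.95; Ptprc 1.38, Jchain 2.54) and Lyz2 was lower (-1.13). Their part in the carriers' values was not tested.

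The promoters of 5 carriers are shown for the gene of smallest p (Slc16a12), 3 absorptive carriers that shared an order of arrays (Slc3a1, Slc16a10 and Slc15a1) and an expressed carrier whose window holds the letters of the SOX motif (Slc7a1). Each window runs from 250 bases before to 50 bases after a transcription start in RefSeq on GRCm38.p6, 5′ to 3′ on the gene's strand, so its last 50 bases lie in the first exon or just beyond it. The windows lie at chr19:34747279-34747578 (minus strand), chr17:85028097-85028396 (plus), chr10:40142205-40142504 (minus), chr14:121505205-121505504 (minus) and chr5:148392766-148393065 (minus, 1 of 2 starts of Slc7a1). Capitals mark matches on either strand to AACAAT (SOX), GTTAAT (a half-site of HNF1) or TTTATG (CDX), and no matches overlapped.
Slc16a12: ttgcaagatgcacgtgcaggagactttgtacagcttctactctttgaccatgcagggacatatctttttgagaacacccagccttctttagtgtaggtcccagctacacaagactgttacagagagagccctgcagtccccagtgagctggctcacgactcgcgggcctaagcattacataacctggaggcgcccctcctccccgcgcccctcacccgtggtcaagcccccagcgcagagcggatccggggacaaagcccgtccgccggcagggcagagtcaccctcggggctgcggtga
Slc3a1: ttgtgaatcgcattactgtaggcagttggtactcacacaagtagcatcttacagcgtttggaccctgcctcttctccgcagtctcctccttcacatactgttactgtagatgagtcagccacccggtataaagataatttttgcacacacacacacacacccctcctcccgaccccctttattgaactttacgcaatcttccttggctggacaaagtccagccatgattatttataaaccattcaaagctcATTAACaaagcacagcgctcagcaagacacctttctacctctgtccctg
Slc16a10: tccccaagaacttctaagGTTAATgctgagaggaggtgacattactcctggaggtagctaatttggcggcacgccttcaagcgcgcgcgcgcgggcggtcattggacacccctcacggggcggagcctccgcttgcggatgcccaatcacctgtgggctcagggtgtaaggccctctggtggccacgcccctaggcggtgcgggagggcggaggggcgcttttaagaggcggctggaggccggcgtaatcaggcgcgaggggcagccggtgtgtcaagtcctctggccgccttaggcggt
Slc15a1: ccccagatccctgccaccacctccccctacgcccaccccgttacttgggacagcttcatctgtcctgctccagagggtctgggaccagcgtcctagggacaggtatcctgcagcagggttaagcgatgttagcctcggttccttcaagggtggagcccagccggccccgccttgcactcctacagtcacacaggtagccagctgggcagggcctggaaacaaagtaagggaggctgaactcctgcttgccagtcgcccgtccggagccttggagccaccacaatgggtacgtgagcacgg
Slc7a1: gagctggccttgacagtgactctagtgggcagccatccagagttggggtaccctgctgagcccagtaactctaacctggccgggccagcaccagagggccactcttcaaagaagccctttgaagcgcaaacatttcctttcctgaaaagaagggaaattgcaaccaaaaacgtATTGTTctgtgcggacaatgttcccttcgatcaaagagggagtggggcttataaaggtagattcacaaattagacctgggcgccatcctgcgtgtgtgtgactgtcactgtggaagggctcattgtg

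The window of Slc16a12 held none of the 3 motifs, which says only that these letters are absent from it. The RefSeq table had windows for 32 of the 42 expressed genes, 43 in all. AACAAT was found in 2 of the 43 (4.65%), those of Slc7a1 and Slc38a7, against 10.7% of 32851 windows of all genes. GTTAAT was found in 6 of 43 (14.0%) against 7.10% of all windows, in Slc3a1, Slc16a10, Slc6a20a, Slc36a1, Slc7a7 and Slc7a15. TTTATG was found in 2 of 43 (4.65%) against 11.9%. These counts describe letters in the windows, and no binding was measured.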

How the data were processed

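Per the submitters' processing notes, the authors' deposited log2 intensities were made with GCRMA; limma is listed as well, both without a version. GCRMA adjusts background with the probes' sequences, scales all arrays jointly and leaves dim probe sets near a floor, where differences shrink. The platform annotation named the genes, and all 81 symbols matched RefSeq by gene identifier. Array controls (64) were left out of 45101 probe sets, and the 18108 with a mean of at least 4 were fitted for KO minus WT in limma 3.58.1 (R 4.3.3; lmFit, eBayes, two-sided, Benjamini-Hochberg). Residual degrees of freedom were 4, prior ones 2.59, and the code was tested on simulated data. Intervals are limma's, at 95%, for each gene singly. Arrays carry no read depth. Mice were the replicates.

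Members and gene lists were chosen with earlier results of these data known. Named genes were the expressed apical and basolateral carriers, the 12 brightest members, the 12 of smallest p, and up to 3 genes of smallest p in each other list. Besides leaving out each array, the alternatives were array weights, a trended and robust variance prior, centring on array medians, quantile normalization, the filter dropped or set at 6, the replicate number as a block, and the mean or the smallest-p probe set of a gene. A covariate for Y-linked signal was chosen after seeing the data. That signal was present on WT 1 and WT 2 only, so the genotype difference in this fit is KO 1 to KO 3 against WT 3 alone. It rests on 1 control, which also had the highest Gapdh 3' minus 5' signal.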

Additional observations from a re-analysis of the deposited data

How the results depend on the processing

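With each of the 16 alternatives, 0 transporter genes passed, and the smallest adjusted p of a transporter ran from 0.514 (array weights) to 1. The median difference of the expressed transporters stayed between -0.13 (Y-linked signal as covariate) and 0.10 (without WT 3). For scale, the SD between replicate mice of the members' median was 0.23, which is not an error of the difference. The count of called probe sets in the whole table, 2, was 11 with array weights, 4 under quantile normalization, 1 with a filter at 6, 0 with no filter, 0 with the replicate block and 0 once Y-linked signal entered as a covariate, and 0 to 16 with single arrays left out. Leaving out KO 2 gave 1, leaving out WT 1 or WT 2 gave 0, and leaving out WT 3 gave 16. The labels do not pair the mice, and same-numbered mice correlated at -0.05, -0.29 and 0.03 in their deviations from the group means. Of 28 named genes, 14 kept their sign under every alternative that gave them a value. For 6 of the 28 at least 1 gave none: Slc7a6, Slc6a7, Slc1a4 and Slc15a2 lie under a filter at 6, and Slc1a3, Slc38a9, Slc1a4 and Slc15a2 had no value from averaged probe sets. With the Y-linked covariate, which leaves WT 3 as the only control in the contrast, the difference was larger in 14 named genes, smaller in 10 and turned in 4. These counts reflect where WT 3 lay against the WT mean, and the effect of sex was not tested.

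The other 14 turned sign under at least 1 alternative, and the cause was not tested. With array weights, Slc15a1 was -0.22, Slc7a8 0.03, Slc38a2 0.10 and Slc7a1 0.14. With probe sets averaged for each gene, Slc7a1 was 0.03, Slc1a1 0.04, Slc38a2 0.07 and Slc7a7 0.07. With the probe set of smallest p, Slc16a10 was -0.35, Slc7a1 0.18, Slc38a2 0.26 and Slc7a7 0.26. Slc15a1 was -0.02 under quantile normalization. Once Y-linked signal was a covariate, Slc6a4 was -0.05, Slc3a2 -0.28, Slc15a2 -0.46 and Slc15a1 -0.48. With single arrays left out, Slc15a1 ran from -0.60 to 0.53, Slc7a8 from -0.60 to 0.11, Slc6a6 from -0.68 to 0.08, Slc38a2 from -0.20 to 0.16, Slc7a1 from -0.32 to 0.20, Slc7a9 from -0.36 to 0.07, Slc7a7 from -0.38 to 0.13, Slc6a4 from -0.19 to 0.28, Slc3a2 from -0.21 to 0.27, Slc3a1 from -0.04 to 0.38 and Slc36a1 from -0.97 to 0.08. Several probe sets of 1 gene were tested in 16 genes, and 10 of these had probe sets of opposite sign, in 0 cases with both differences at least 0.5 in size. Differences of dim genes near the floor, such as Slc1a4 and Slc15a2, are the least certain in size.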
